A study of Mus musculus with 4 samples.

Results

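The genes described here were the 7 interferon regulatory factor (IRF) genes Irf1, Irf2, Irf3, Irf4, Irf5, Irf7 and Irf9, out of 21938 protein-coding genes of GENCODE release M21. Every position or region of the authors' deposited lists of methylation differences that lay inside a gene or within 10000 bp of it was taken as belonging to that gene. Genes with no such entry were counted as having no listed difference. The gene Irf8 was kept apart and used for comparison.

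IRF proteins share an amino-terminal DNA-binding domain with conserved tryptophans and bind elements built around the letters GAAA, found in the promoters and enhancers of interferon-stimulated genes. Some members act as activators downstream of interferon or pathogen receptors, others antagonise them, and IRF4 and IRF8 bind a composite site together with the ETS factor PU.1, the factor that defines the myeloid lineage. Methylation of the cytosine in CpG dinucleotides is usually low at active promoters and enhancers and high elsewhere in the genome.

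Whole-genome bisulfite sequencing had been applied to untreated microglia, the macrophages resident in the brain, isolated without enzymes and sorted from 3-month-old C57BL/6J mice. Of 4 samples, 2 were labelled WT and 2 IRF8KO, the latter lacking the transcription factor IRF8. The labels give neither the knockout allele nor whether replicates came from separate animals. Both deposited lists compare a first with a second group and hold no value per sample, so the spread between replicates could not be seen and the read depth is unknown. No header says which genotype is the first group, and none was assigned; a positive difference means a higher methylation level in the first group. Levels run from 0 to 1 and only their difference was used here. The difference at a position carries the standard error (SE) that the authors deposited, and FDR is their false discovery rate per position. The difference of a region has neither and is given without an error. The tables hold no expression values, so the microglial identity of the cells could not be checked from markers.

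Differences were concentrated at Irf2, Irf1 and Irf5, while Irf3, Irf7 and Irf9 had none listed. The authors' deposited table lists 133 positions at the 7 genes, with 67 at Irf2, 35 at Irf1, 30 at Irf5 and 1 at Irf4. Across the genome 64.1% of protein-coding genes had at least 1 listed position, so 4 of 7 is close to the background. An FDR under 0.05 was reached by 11 positions, of which 8 were at Irf2, 2 at Irf1 and 1 at Irf5. These 3 genes make up 42.9% of the 7, beside 30.8% of all protein-coding genes with such a position. Among the 133 positions the share with an FDR under 0.05 was 8.27%, beside 18.7% of all listed positions. A deposited region lay at 2 of the 7 genes, with 3 regions at Irf2 and 2 at Irf5, beside 9.19% of all protein-coding genes. With regions of at least 10 cytosines, only Irf2 was left. The gene Irf2 is 107727 bp long, beside a median of 17425 bp over 21386 protein-coding genes, and these counts are not adjusted for length. The 7 genes were also chosen with earlier results of these data known.

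**Figure D1:**
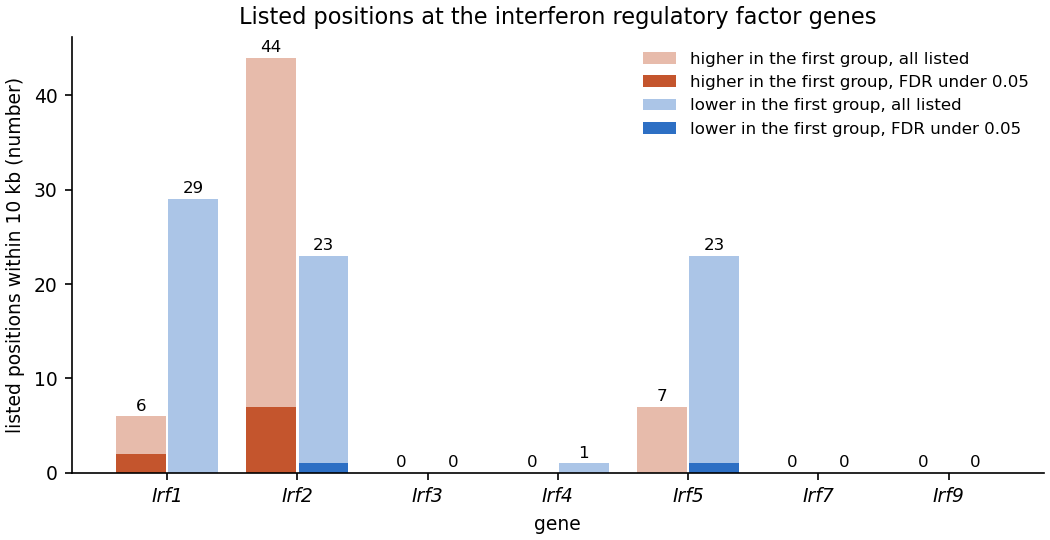
Number of listed positions within 10 kb of each gene, split by direction; pale bars are all listed positions and the dark part at their foot is the positions with an FDR under 0.05. Irf2 had 44 positions higher and 23 lower in the first group, Irf1 had 6 and 29, Irf5 had 7 and 23, and Irf3, Irf7 and Irf9 had 0.

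The sequences that carry the differences at Irf2 are shown first, because it has the most listed positions and shows both directions. Each is the plus strand of GRCm38 (mm10), 5′ to 3′, and capitals mark the positions that the authors' deposited table lists, so that a listed CpG appears as CG and a lone capital is a listed position outside a CpG or on 1 strand of it. The first is the region in intron 1, chr8:46746088-46746338; the second runs from the start of the region in intron 2 to the last listed position of its cluster, chr8:46804832-46805070; the third holds the region in intron 5 and the 90 bases before it, chr8:46811544-46811695.
Irf2 intron 1: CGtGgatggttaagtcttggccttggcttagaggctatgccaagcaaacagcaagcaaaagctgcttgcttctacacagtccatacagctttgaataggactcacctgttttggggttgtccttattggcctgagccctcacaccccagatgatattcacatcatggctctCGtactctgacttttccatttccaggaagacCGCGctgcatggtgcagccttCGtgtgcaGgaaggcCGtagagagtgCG
Irf2 intron 2: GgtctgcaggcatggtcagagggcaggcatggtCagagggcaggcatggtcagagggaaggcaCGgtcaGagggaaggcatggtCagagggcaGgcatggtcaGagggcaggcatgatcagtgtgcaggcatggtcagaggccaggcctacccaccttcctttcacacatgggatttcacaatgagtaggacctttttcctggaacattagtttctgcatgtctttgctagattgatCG
Irf2 intron 5: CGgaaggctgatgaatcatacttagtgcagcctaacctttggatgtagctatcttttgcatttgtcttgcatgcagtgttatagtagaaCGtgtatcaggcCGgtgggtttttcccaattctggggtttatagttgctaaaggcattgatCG

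The next shows both regions of Irf5, which run from the end of intron 8 into the last coding exon of the reference transcript, chr6:29536493-29536749.
Irf5 intron 8 and exon 9: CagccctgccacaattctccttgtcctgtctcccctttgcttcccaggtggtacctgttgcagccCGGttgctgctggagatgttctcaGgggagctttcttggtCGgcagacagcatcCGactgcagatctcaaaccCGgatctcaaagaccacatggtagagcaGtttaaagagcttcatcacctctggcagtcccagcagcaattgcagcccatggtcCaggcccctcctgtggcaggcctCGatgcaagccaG

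The last set shows the 2 positions of Irf1 with an FDR under 0.05, each with 40 bases on either side, and the upstream cluster that holds most of its listed positions. They are chr11:53772186-53772266 in intron 2, chr11:53779850-53779930 past the end of the gene, and chr11:53760105-53760361 upstream.
Irf1 intron 2: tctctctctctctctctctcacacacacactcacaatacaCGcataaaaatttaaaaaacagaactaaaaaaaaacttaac
Irf1 downstream: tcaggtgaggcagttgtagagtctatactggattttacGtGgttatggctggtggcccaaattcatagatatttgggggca
Irf1 upstream: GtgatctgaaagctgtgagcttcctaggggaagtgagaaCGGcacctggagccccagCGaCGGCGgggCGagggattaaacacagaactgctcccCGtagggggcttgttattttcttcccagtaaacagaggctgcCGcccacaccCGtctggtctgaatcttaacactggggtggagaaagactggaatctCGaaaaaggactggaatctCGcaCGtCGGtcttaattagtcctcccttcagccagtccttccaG

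The gene Irf2 (ENSMUSG00000031627.9, chromosome 8, 46739732 to 46847458, plus strand) encodes a factor that binds the same elements as IRF1 and is known mainly as its antagonist. All 67 listed positions lay inside the gene, in introns, and formed 6 clusters when positions within 500 bp were joined. In intron 1, between 5827 and 6606 bp from the gene start, the direction changed within the cluster. Its first 2 positions were higher in the first group, with differences of 0.246 (SE 0.0689) and 0.288 (SE 0.104) in the authors' deposited table. The next 16 positions, from 6356 bp on, were lower, and form a deposited region of 251 bp with 16 counted cytosines. The region's difference is -0.404 in the authors' deposited table. The FDR was under 0.05 at just 1 of the 16, the G at 46746319, which is outside a CpG, with -0.432 (SE 0.103, FDR 0.0270) in the authors' deposited table. The region's absolute area score, the authors' sum of test statistics, lay above that of 70.1% of the 3389 deposited regions.

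Intron 2 of Irf2 held most of the positions with an FDR under 0.05. A cluster of 17 positions, 64941 to 65338 bp from the gene start, was higher in the first group at every position, and the authors' deposited table gives differences from 0.331 to 0.414. Its region of 104 bp had a difference of 0.396 in the authors' deposited table, over 8 counted cytosines. Of these 8 positions 5 had an FDR under 0.05, between 0.0218 and 0.0318, and all 5 were C or G bases outside a CpG. The reference holds 1 CpG in the region. As the sequence printed for intron 2 shows, the region overlaps a tandem repeat: the 12-base word aggcatggtcag occurs 6 times, most often 17 bp apart, between 46804839 and 46804969. All 5 positions with an FDR under 0.05 in the region lie within that repeat. The sixth of the cluster, at 46805070, lies past the repeat on a CpG, where the difference in the authors' deposited table is 0.406 (SE 0.0841, FDR 0.00284), the smallest FDR of the gene. A single CpG position in the same intron, at 46801457 on a repeat-masked base, had a difference of 0.218 (SE 0.0523, FDR 0.0306) in the authors' deposited table.

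Intron 5 of Irf2 held 23 positions higher in the first group, 71410 to 71963 bp from the gene start, and the authors' deposited table gives differences from 0.287 to 0.461. None of the 23 had an FDR under 0.05, the smallest being 0.113. A deposited p under 0.05 does not set them apart, since every listed position of the 7 genes had one. Its region of 62 bp, with 5 counted cytosines, had the widest difference of the 5 regions, 0.444 in the authors' deposited table. The median SE of this cluster was 0.128, against 0.109 in the intron 2 cluster. Toward the end of the gene, in intron 6, 7 CpG positions were lower in the first group, by -0.318 to -0.266 in the authors' deposited table, with no region and a smallest FDR of 0.521. Intron 1 also had a lone listed position at 46791796, with 0.295 (SE 0.0813, FDR 0.156) in the authors' deposited table. Along Irf2 the blocks of positions thus lay lower, higher, higher and lower in the first group from start to end.

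**Figure D2:**
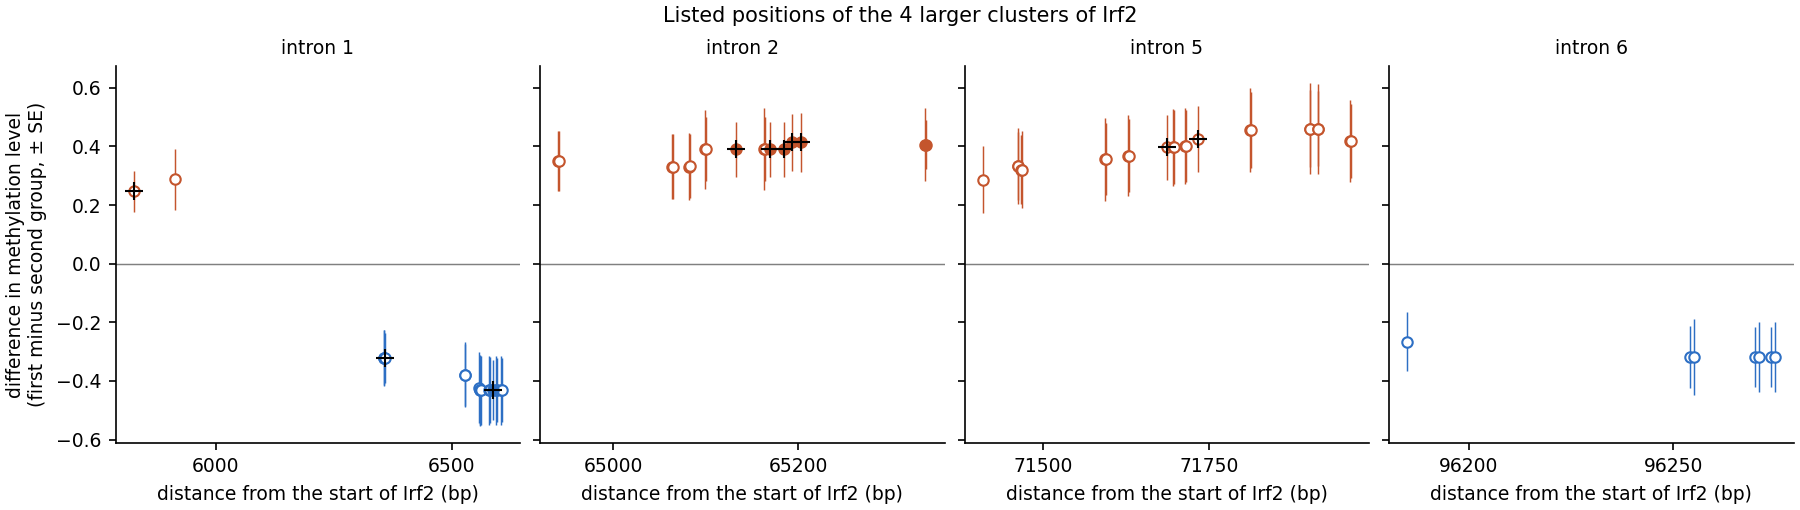
Difference in methylation level (first minus second group) of each listed position in the 4 larger clusters of Irf2, against its distance from the gene start in bp; bars are the deposited SE, filled points have an FDR under 0.05 and crosses mark positions outside a CpG. The clusters of introns 2 and 5 lie above 0 throughout, that of intron 6 below, and that of intron 1 changes from 2 positions above to 16 below.

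The gene Irf1 (ENSMUSG00000018899.16, chromosome 11, 53770014 to 53778374, plus strand) encodes the activator that interferon gamma induces. Of its 35 listed positions only 3 lay inside the gene, all in introns and all higher in the first group. The position with the smallest FDR of the 7 genes was the C of a CpG at 53772226 in intron 2, on a repeat-masked base. The run of alternating t and c in its printed sequence ends at 53772205. For this C the difference in the authors' deposited table is 0.522 (SE 0.0619, FDR 1.76e-12). The G of the same CpG, at 53772227, has the identical difference in the authors' deposited table but an SE of 0.174 and an FDR of 0.668. The second position past the threshold, the G outside a CpG at 53779890, lies past the end of the gene, 9876 bp from its start, with a difference of 0.263 (SE 0.0528, FDR 0.00146) in the authors' deposited table. The G of a CpG 2 bp before it has the same difference, an SE of 0.0793 and an FDR of 0.337 in the authors' deposited table.

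The other listed positions of Irf1 were mostly far upstream. A cluster of 29 positions, -9909 to -9653 bp relative to the gene start and outside any annotated gene, was lower in the first group throughout, by -0.324 to -0.280 in the authors' deposited table. Neighbouring positions shared values, so that the 29 positions hold 10 distinct differences. No position of the cluster had an FDR under 0.05, the smallest being 0.551, and no listed region overlapped it. The cluster crosses the edge of the 10000 bp window, and in full it holds 33 positions; with a window of 2000 bp it is left out.

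The gene Irf5 (ENSMUSG00000029771.12, chromosome 6, 29526625 to 29541871, plus strand) encodes a factor activated through Toll-like receptors and MyD88 that drives inflammatory cytokine genes. Its 23 positions inside the gene formed 1 cluster, 9771 to 10283 bp from the gene start, and all were lower in the first group, by -0.373 to -0.305 in the authors' deposited table. The cluster begins in intron 8 and runs through the coding part of exon 9 into its UTR. Of the 23 positions 3 lay in the intron, 15 in coding sequence and 5 in the UTR. The region at chr6:29536493-29536582 had a difference of -0.360 in the authors' deposited table, over 5 counted cytosines. The region at chr6:29536659-29536749 had -0.366 in the authors' deposited table, also over 5 cytosines. Only the intronic C at 29536493, outside a CpG, had an FDR under 0.05 (difference -0.347, SE 0.0861, FDR 0.0472 in the authors' deposited table). The reference holds 1 CpG in each of these regions. Both area scores were low among the deposited regions, above 18.5% and 16.2% of them.

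A second cluster counted for Irf5 went the other way. It holds 7 positions 17430 to 17645 bp from the gene start, past the end of Irf5 and inside an intron of Tnpo3, the neighbouring gene. All 7 were higher in the first group, by 0.261 to 0.305 in the authors' deposited table, and their smallest FDR was 0.317.

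**Figure D3:**
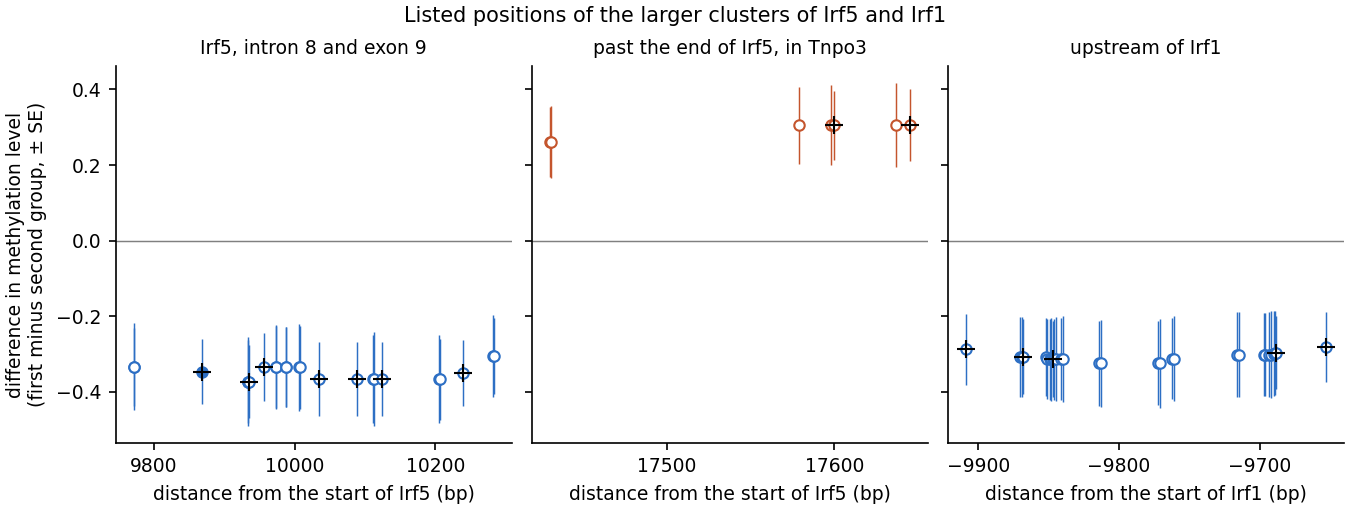
Difference in methylation level (first minus second group) of each listed position in the larger clusters of Irf5 and Irf1, against its distance from the gene start in bp; bars are the deposited SE, the filled point has an FDR under 0.05 and crosses mark positions outside a CpG. The cluster inside Irf5 and that upstream of Irf1 lie below 0, and the one in Tnpo3 above.

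The genes Irf3 and Irf7 encode the factors that viral nucleic acid sensors activate to switch on type I interferon genes, and Irf9 the DNA-binding subunit of the interferon-induced complex ISGF3. None of these 3 had a listed position, and 35.9% of all protein-coding genes had none either. From the row numbers kept in the authors' deposited table, interpolation gave about 1174 tested positions at Irf3, 820 at Irf7 and 1077 at Irf9. The interpolation runs between listed positions, and none lay in these windows. The numbers therefore do not show whether the windows themselves held tested positions. The nearest listed position lay 52474 bp from Irf3, 14432 bp from Irf7 and 21649 bp from Irf9. With a window of 50000 bp Irf3 still had 0, Irf7 had 2 and Irf9 had 17 listed positions, none with an FDR under 0.05. A position that is not listed has no value, so the levels at these genes are not known here.

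The gene Irf4 encodes the factor most like IRF8 in its partnership with PU.1, and is known from lymphocytes and alternatively activated macrophages. It had 1 listed position, on a CpG in intron 7 at 30760934 on chromosome 13, lower in the first group by -0.300 (SE 0.107, FDR 0.959) in the authors' deposited table. Within 50000 bp of Irf4, 2 regions and 10 positions with an FDR under 0.05 were listed. At that distance Irf1 had 1 region and 13 such positions. The share of all protein-coding genes with such entries is not given here for this window.

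As a share of tested positions, the 3 genes with the most listed positions stood at the upper end of all genes. They were picked by their listed positions, so a high rank follows in part from that choice. Listed positions made up 3.00% of those tested at Irf1, 2.74% at Irf5 and 2.22% at Irf2, above 96.7%, 96.0% and 93.9% of 21386 protein-coding genes. Irf4 had 0.112%, above 43.3% of genes, and Irf3, Irf7 and Irf9 had 0. The median gene had 0.182%. Over all 7 genes the share was 1.44% (95% Clopper-Pearson interval 1.21 to 1.70), beside 0.63% of tested positions genome-wide. The interval covers counting error only and takes positions as independent, which neighbouring positions are not. The 9245 tested positions of the 7 genes are interpolated, and those at Irf3, Irf7 and Irf9 may lie outside these windows. Without Irf2 the share was 1.06%, and the median of the 7 genes was 0.112%.

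**Figure D4:**
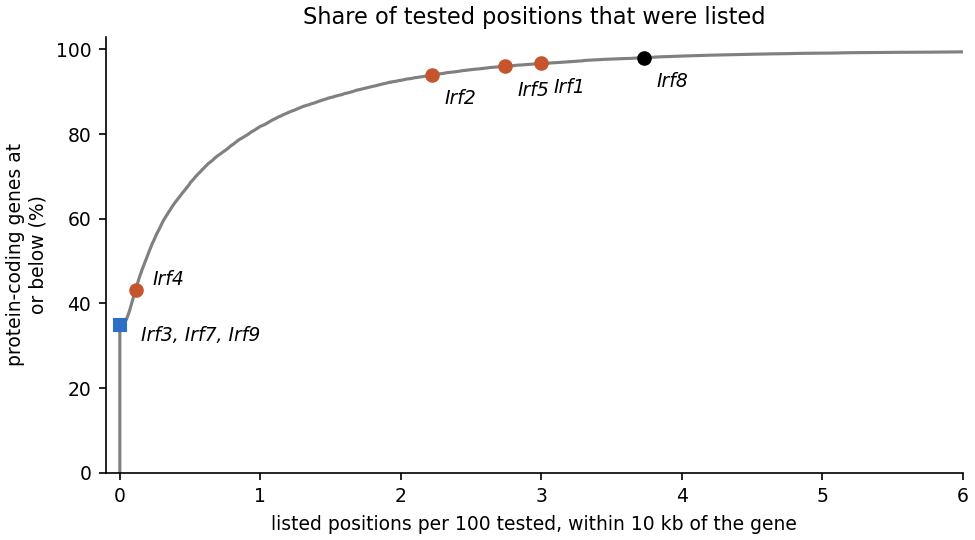
Cumulative percentage of protein-coding genes (vertical axis) by the number of listed positions per 100 tested within 10 kb (horizontal axis, drawn up to 6); orange points are the IRF genes with listed positions, the blue square those with none, and the black point Irf8. Irf2, Irf5 and Irf1 lie between 2.22 and 3.00 and Irf8 at 3.73.

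The IRF genes did not share a direction. Of the 133 positions 57 (42.9%, 95% Clopper-Pearson interval 34.3 to 51.7) were higher in the first group, beside 61.9% of all listed positions. This interval too takes positions as independent, which neighbouring positions are not, and is therefore too narrow. The share of 42.9% rested on single genes, and was 19.7% without Irf2 and 52.0% without Irf1. Counted as clusters, 9 of 14 (64.3%) were higher in the first group. A lone position counts as a cluster here, and cluster size ran from 1 to 29 positions. Except at Irf4, every cluster of 1 or 2 positions was higher, while larger clusters went both ways. Of the 11 positions with an FDR under 0.05, 9 were higher, beside 58.1% of all positions with an FDR under 0.05. These 11 are not independent either, since 6 of the 9 lay in 1 cluster in intron 2 of Irf2. Over the 133 positions the median absolute difference was 0.333, beside 0.329 over all listed positions.

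The positions past the threshold were not typical of those listed. Of the 133 positions 106 lay on 58 reference CpGs and 27 on other C or G bases. Of the 11 with an FDR under 0.05, 8 were outside a CpG, beside 27.7% of all positions with an FDR under 0.05. Of these 8, 5 lay together in the repeat of Irf2 intron 2 and are not independent. All 11 carried, in at least 1 group, the dispersion value that many positions share. It is 0.0571 in the first and 0.0558 in the second group in the authors' deposited table. Of the 11, 9 carried it in both groups, beside 48.8% of all positions with an FDR under 0.05. The 91 positions whose dispersion differed from that shared value in both groups all lay on CpGs. Over the genome, 0.0456% of such positions with an FDR under 0.05 lay outside a CpG. None of the 91 had an FDR under 0.05, the smallest being 0.0639. The deposited p of the 91 was under 0.05, as at every listed position of the 7 genes. Genome-wide, positions with their own dispersion made up 46.4% of the 269406 listed positions. Of the 50425 with an FDR under 0.05 they made up 34.8%, or 17536 positions. At the 27 positions outside a CpG the median SE was 0.0959, beside 0.112 at the CpG positions, and 16 of them had the identical difference, to within 1e-06, as a listed CpG position within 100 bp. How far base context and dispersion bear on the calls was not tested. At CpGs alone the count was 3, with 2 at Irf2 and 1 at Irf1.

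**Figure D5:**
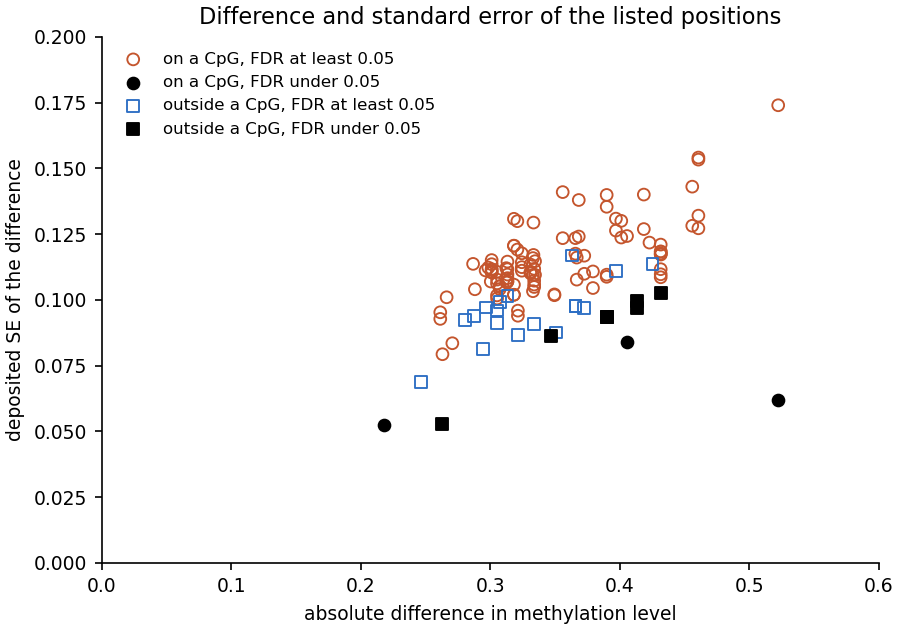
Deposited SE (vertical axis) against the absolute difference in methylation level (horizontal axis) of the 133 listed positions; circles lie on a CpG, squares outside one, and filled black symbols have an FDR under 0.05. The 11 filled symbols lie at an SE between 0.0523 and 0.103, and 8 of them are squares, some of which coincide.

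No listed position lay in a promoter of the 7 genes. The RefSeq promoter table (GRCm38.p6), 300 bases from 250 before to 50 after a start, holds 9 promoters for them, and 0.703% of its 32851 promoters held a listed position. The 9 held between 1 (one of those of Irf9) and 43 (one of those of Irf1) CpGs, beside a median of 7. The nearest listed position was 739 bp from the centre of a promoter at Irf1, 5915 bp at Irf2 and 9872 bp at Irf5. The promoter of Irf2 holds the composite ETS and IRF element GGAANNGAAA, present on either strand in 2.72% of promoters, and the core of the interferon-stimulated response element GAAANNGAAA, present in 3.44%. The 2 matches overlap, at bases 4 to 13 and 10 to 19 of that promoter, and neither motif was found in the other 8.

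The same motifs were searched on both strands in 300 bp around the centre of each region. The composite element was in 0 of the 5 regions of Irf2 and Irf5, beside 11.2% of all 3389 regions. The response element core was in 1 of 5, beside 5.28% of all regions. It lies in the intron 1 region of Irf2 on the minus strand, at 46746271 to 46746280, and reads tttccatttc on the printed strand. A match is a run of letters and not a shown binding site.

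Around Irf8, kept apart because the study removes it, all 59 listed positions were higher in the first group. Of these, 55 formed 1 cluster, 3246 to 4252 bp from the gene start, from intron 1 through exon 2 into intron 2. The 1 listed region lies inside that cluster, with a difference of 0.275 in the authors' deposited table. None of the 59 had an FDR under 0.05. Every one had a deposited p under 0.05, as did every listed position of the 7 genes.

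A list of 40 genes of the pathway around the IRF proteins, Irf8 included, was taken by the same window. It was drawn up with earlier results of these data known, so its shares beside those of all genes are descriptive only. A region was present at 9 of the 40 (22.5%), beside 9.19% of all protein-coding genes, and a position with an FDR under 0.05 at 14 (35.0%), beside 30.8%. The median share of tested positions that were listed was 0.258%, and 14 genes had none. Positions with an FDR under 0.05 were higher in the first group at 9 genes and lower at 7, and both directions occurred at 2 of these. With positions of their own dispersion only, 6 genes had one with an FDR under 0.05.

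Among the 7 receptors and kinases of interferon signalling, 3 had a region. At Ifnar2, a subunit of the type I interferon receptor, the first group was higher in all 3 regions, by 0.377 in that of largest area in the authors' deposited table. At Ifngr2, a subunit of the interferon gamma receptor, a region of 47 cytosines was lower by -0.340 in the authors' deposited table. Tyk2, a kinase of the type I receptor, had 1 region in each direction, of which the larger in area was higher by 0.488 in the authors' deposited table. Stat2, a subunit of ISGF3, had 3 listed positions and no region.

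Upstream of IRF3, IRF5 and IRF7, 1 of 12 sensors and adaptors had a region. It was at Tlr9, an endosomal receptor for DNA, and was lower in the first group by -0.352 in the authors' deposited table. Of the 7 kinases and ligases, Ikbkb, a kinase that activates IRF5, had a region of 28 cytosines that was lower by -0.522 in the authors' deposited table, and 28 positions with an FDR under 0.05. Traf6, a ubiquitin ligase of the same pathway, had 2 regions that were higher, that of larger area by 0.377 in the authors' deposited table. Tbk1 and Ikbke, the kinases of IRF3, had no listed position. Of 5 DNA partners of IRF4 and IRF8, Batf3 had 2 regions lower in the first group, that of larger area by -0.332 in the authors' deposited table and past the end of the gene. Spi1, which encodes PU.1, had 4 listed positions and no region. The 3 corepressors of IRF2, Irf2bp1, Irf2bp2 and Irf2bpl, had no listed position, and of the ligands Ifnb1 and Ifng only Ifnb1 had 1.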

How the data were processed

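Bisulfite libraries were made, per the labels' protocols, from DNA of 40000 sorted microglia per sample (50 ng, 8 cycles of PCR, paired reads of 75 bp). The submitters' processing notes name Bismark, Trim Galore and mm10, without version or role; the differential test is not given in the sources used here. Per the file headers, the authors' deposited position table holds a difference score between group levels, its SE, dispersion scores, a p-value and an FDR. The deposited region table holds length, counted cytosines, difference and area score. The columns of levels served to check that differences are coded first minus second group, and entered no result because no header ties them to a genotype. Depth, coverage and values per sample were not analysed here. Every listed position had a posterior probability of at least 0.95.

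Here, entries were assigned to GENCODE M21 genes within 10000 bp, counted at an FDR under 0.05, and joined within 500 bp into clusters. Introns and exons are numbered on 1 reference transcript per gene. Tested positions were interpolated from deposited row numbers, which reach 42734461. Ranks used genes with over 100 tested positions. CpGs, repeat masking and sequences were read from GRCm38. No test of a position was added. The members and gene lists were chosen with earlier results of these data known. All 7 genes and their regions are named, with up to 3 positions of smallest FDR each and the other positions past the threshold given as ranges; of the pathway, genes with a region are named, and others chosen after their values were seen; some genes counted in it are not reported here. Mb21d1 is annotated as Cgas. Python 3.11.15, pandas 2.3.3 and scipy 1.17.1 were used; counting was tested on simulated data.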

Additional observations from a re-analysis of the deposited data

How the results depend on the processing

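Of 70 alternatives, 36 left the result within 1.5 times its count or within its counting interval. That interval takes positions as independent, which neighbouring positions are not. The alternatives without Irf2 or without Irf1 were chosen after seeing the data. No paired analysis was possible because each deposited difference is already over a whole group; leaving out replicates, a replicate block and a coverage minimum were not run for the same reason, and unknown depth limits every value. Where settings keep fewer or more entries by construction, no other cause was tested.

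The 11 positions with an FDR under 0.05 became 37 within 50000 bp, 3 with an FDR under 0.01, 1 under 0.001, 48 with a p under 0.001, 3 at reference CpGs, 0 with their own dispersion, 6 as clusters and 3 without Irf2. The genes with such a position went from 3 to 1 under 0.001 and to 0 with own dispersion. The 133 listed positions became 235 within 50000 bp, 14 as clusters and 66 without Irf2. The genes with a region went from 2 to 4 within 50000 bp, and to 1 with at least 10 cytosines or without Irf2.

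The share of positions higher in the first group, 42.9%, was 51.0% within 2000 bp and 52.0% without Irf1. Both stayed below 61.9%, the share over all listed positions. Over clusters the share was 64.3%, and over positions with an FDR under 0.05 it was 81.8%. It was 26.5% with genes weighted equally and 19.7% without Irf2. The listed share of tested positions, 1.44%, was 2.15% in gene bodies, 1.79% within 2000 bp, 0.881% within 50000 bp, 1.15% at CpGs, 0.984% with own dispersion and 1.06% without Irf2. Of the pathway genes, those with a region went from 9 to 5 with at least 10 cytosines. Those with a position past the threshold went from 14 to 8 in gene bodies, 23 within 50000 bp, 5 under 0.001, 8 at CpGs and 6 with own dispersion.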
